A study of Mus musculus with 16 samples.

Results

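The genes described here are 35 genes of PPARalpha signalling, fatty acid uptake, mitochondrial and peroxisomal fatty acid oxidation, and ketone body formation in mouse liver. They were taken by name: Ppara and the listed enzymes, carriers and thioesterases were matched through their Ensembl identifiers to both deposited count tables. All 35 were found, of 23167 identifiers present in both tables (24840 in the table for females and 24623 in the table for males). The rule uses names alone and no expression value, but the names were chosen with earlier results of these data known.

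The study sequenced liver RNA of mice with a liver-directed deletion of Matr3 and of mice without it. Matr3 encodes matrin-3, a nuclear protein that binds RNA and DNA. Groups of 4 mice each were female LKO, female floxed, male LKO and male floxed, with 1 library per mouse. LKO mice carried floxed Matr3 alleles and Cre recombinase under the albumin promoter, which is active mainly in hepatocytes, so other liver cells keep the gene. Floxed mice carried the floxed alleles without Cre and were littermates of the LKO mice, according to the labels. All groups shared the high-fat diet, in which fat gave 60% of the energy. It was started when the mice were 7 weeks old and continued for 16 weeks, and the mice were fasted for 12 hours before the liver was taken. There was no group on chow and no fed group among these libraries.

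Each library held between 30495505 and 36496193 counts assigned to genes. Values below are CPM, counts scaled to a common library size by the trimmed mean of M-values (TMM) over all 16 libraries, unless TPM is named. TPM are counts per length of the gene's exons, scaled to the same total in each library without TMM, so the scales can differ. Since each library came from 1 mouse, p-values measure the spread between mice. Matr3 measured 38.1 ± 1.36 CPM in female LKO livers, against 58.1 ± 4.95 CPM in female floxed livers, and 35.4 ± 1.55 CPM in male LKO livers, against 57.8 ± 3.72 CPM in male floxed livers (SD, n = 4 each; exact permutation p = 0.0286 in either sex, two-sided, the smallest that 70 regroupings allow). The LKO livers held 65.5% of the floxed level in females and 61.3% in males, and the source of this remainder was not tested. Hepatocyte markers such as Alb were abundant in every library, with the summed CPM of the 8 markers between 35239 and 81837. In whole liver, fewer cells of a type and less RNA per cell cannot be told apart.

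PPARalpha is a nuclear receptor that is activated by fatty acids and is the main inducer of fatty acid oxidation in the fasting liver. It binds DNA with the retinoid X receptor at repeats of the element AGGTCA spaced by a single base. Fatty acids enter the cell, are joined to coenzyme A, pass into mitochondria as carnitine esters and are shortened in a cycle of dehydrogenation, hydration, dehydrogenation and thiolysis. Very long chains are first shortened in peroxisomes. In fasting, the liver turns much of the resulting acetyl-CoA into ketone bodies for other organs, and on a high-fat diet the same route competes with the storage of fat.

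Upstream sequences are shown for Acot3 and Acot4, which carry the largest changes with the knockout in females below. Those of their neighbours Acot1 and Acot2, which were not called, and of the most abundant member, Fabp1, are added. Acot3 and Acot4 encode acyl-CoA thioesterases, which release free fatty acids from coenzyme A, of peroxisomes. Acot1 and Acot2 encode the cytosolic and the mitochondrial member of the same family. The 4 genes lie head to tail on the plus strand of chromosome 12, in the order Acot2, Acot1, Acot4, Acot3, within 72.5 kb of mm10 (chr12:83987861-84060402). Fabp1 encodes the liver fatty acid binding protein and is a classical PPARalpha target. The stretches are RefSeq upstream sequence, GRCm38.p6, plus strand, 5′ to 3′, and end before the first transcribed base in RefSeq and Ensembl. For Acot3, RefSeq listed 2 starts, and the stretch before the first listed is shown. Capitals mark AGGTCA, read on either strand, and the looser pair AGGNCANAGGNCA, in which N is any base. The sequences are chr12:84051894-84052143 for Acot3, chr12:84038129-84038378 for Acot4, chr12:84009252-84009489 for Acot1, chr12:83987611-83987860 for Acot2 and chr6:71199629-71199826 for Fabp1.
Acot3: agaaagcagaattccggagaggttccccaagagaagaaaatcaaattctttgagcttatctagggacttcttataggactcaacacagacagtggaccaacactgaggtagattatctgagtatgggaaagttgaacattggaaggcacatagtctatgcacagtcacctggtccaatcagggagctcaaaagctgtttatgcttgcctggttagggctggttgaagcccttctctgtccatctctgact
Acot4: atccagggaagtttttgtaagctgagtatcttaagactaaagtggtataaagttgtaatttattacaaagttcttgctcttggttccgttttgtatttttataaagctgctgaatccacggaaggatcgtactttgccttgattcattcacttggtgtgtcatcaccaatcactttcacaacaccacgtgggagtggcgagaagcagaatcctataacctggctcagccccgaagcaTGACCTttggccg
Acot1: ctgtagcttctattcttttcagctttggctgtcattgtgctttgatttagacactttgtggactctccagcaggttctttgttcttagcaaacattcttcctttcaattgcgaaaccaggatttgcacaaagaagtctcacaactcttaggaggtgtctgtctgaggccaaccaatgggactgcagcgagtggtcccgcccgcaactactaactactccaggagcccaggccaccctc
Acot2: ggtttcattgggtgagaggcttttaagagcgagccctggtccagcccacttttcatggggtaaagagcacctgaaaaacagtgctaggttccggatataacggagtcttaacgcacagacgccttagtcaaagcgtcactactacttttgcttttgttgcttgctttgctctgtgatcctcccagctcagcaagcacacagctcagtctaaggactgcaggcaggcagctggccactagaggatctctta
Fabp1: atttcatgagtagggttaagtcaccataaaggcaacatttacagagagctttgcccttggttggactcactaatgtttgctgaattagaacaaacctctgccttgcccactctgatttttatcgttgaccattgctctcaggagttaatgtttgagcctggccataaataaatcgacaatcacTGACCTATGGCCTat

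The element lies at -13 to -8 from the RefSeq start of Acot4, on the opposite strand, and the Fabp1 pair at -67 to -55, also on the opposite strand. RefSeq had a window for 30 of the 35 members, with 32 windows of 250 bases before a start. AGGTCA on either strand was in 8 of these (25%), against 14% of all 32851 windows. The exact pair AGGTCANAGGTCA was in 0 member windows and in 0.0335% of all windows, and the looser pair was in 0.338% of all windows and, among the members, in that of Fabp1 alone. The 4 Acot windows were 49.5% to 51.9% identical in pairwise alignment. These matches describe letters in the windows and say nothing of binding.

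Per length, Fabp1 was the most abundant member in all groups, with 16910 ± 1794 TPM in female LKO, 20834 ± 3674 TPM in female floxed, 21600 ± 1106 TPM in male LKO and 18451 ± 1351 TPM in male floxed livers (SD, n = 4 each). The next places were held in all groups by Acaa1b, Slc27a2 and Acaa2, of which Acaa2 and Slc27a2 did not differ beyond their spread in males. Acot2 was lowest in female floxed, male LKO and male floxed livers, at 34.5 ± 14.5, 36.6 ± 2.40 and 28.2 ± 4.46 TPM, and next above Acot3 in female LKO livers, where Acot3 had 36.8 ± 16.7 and Acot2 41.9 ± 15.7 TPM (SD, n = 4 each). Acot3 changed its place more than any other member, with rank 35 in female LKO and 23 in female floxed livers, 33 in male LKO and 34 in male floxed livers. Ehhadh held rank 5 in both female groups, 10 in male LKO and 9 in male floxed livers. TPM used the union of all annotated exons as the length, which lowers the value of genes with long minor exons.

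**Figure D1:**
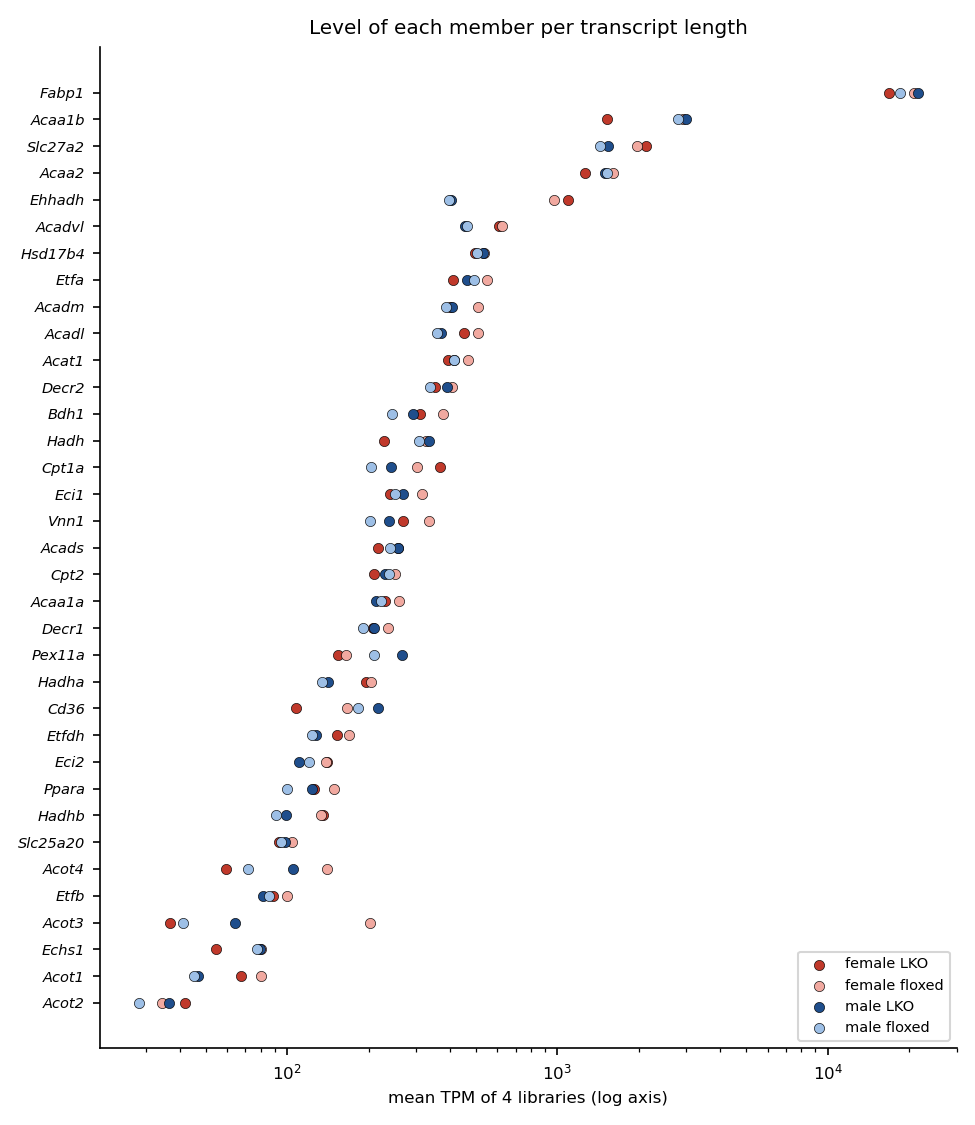
Mean level of each member in TPM on a log10 axis, with 1 point per group of 4 mice in its own colour. Fabp1 stands alone at the top, at 16910 to 21600 TPM, and Acot2 lies at the low end, while the female floxed point of Acot3 lies far right of its other 3 points.

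Within each group, the same library was often the highest or the lowest across members. Female LKO 8 was the highest of the 4 female LKO libraries for 26 of 35 members and for 26.3% of all 16126 genes tested, and female LKO 6 the lowest for 22 members and 23.6% of all genes. Among female floxed libraries, number 1 was highest for 24 members (25.6% of all genes) and number 3 lowest for 19 (22.1%). Male LKO 7 was highest for 21 members (22.5%) and male LKO 8 lowest for 18 (24.7%). Male floxed 4 was highest for 24 members (26%) and male floxed 1 lowest for 20 (26.3%). These are descriptions without a test, since members of a library are not independent. The summed level of the members was 17382 to 23581 CPM in female LKO, 20199 to 25939 CPM in female floxed, 20944 to 22499 CPM in male LKO and 18254 to 21314 CPM in male floxed livers, and the ranges overlapped in either sex. The median coefficient of variation of the members was 14% in female LKO and 9.16% in female floxed livers, and 5.24% in male LKO and 8.46% in male floxed livers. Over all 16126 genes tested it was 14.5%, 13.1%, 9.78% and 12.9% in the same order.

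**Figure D2:**
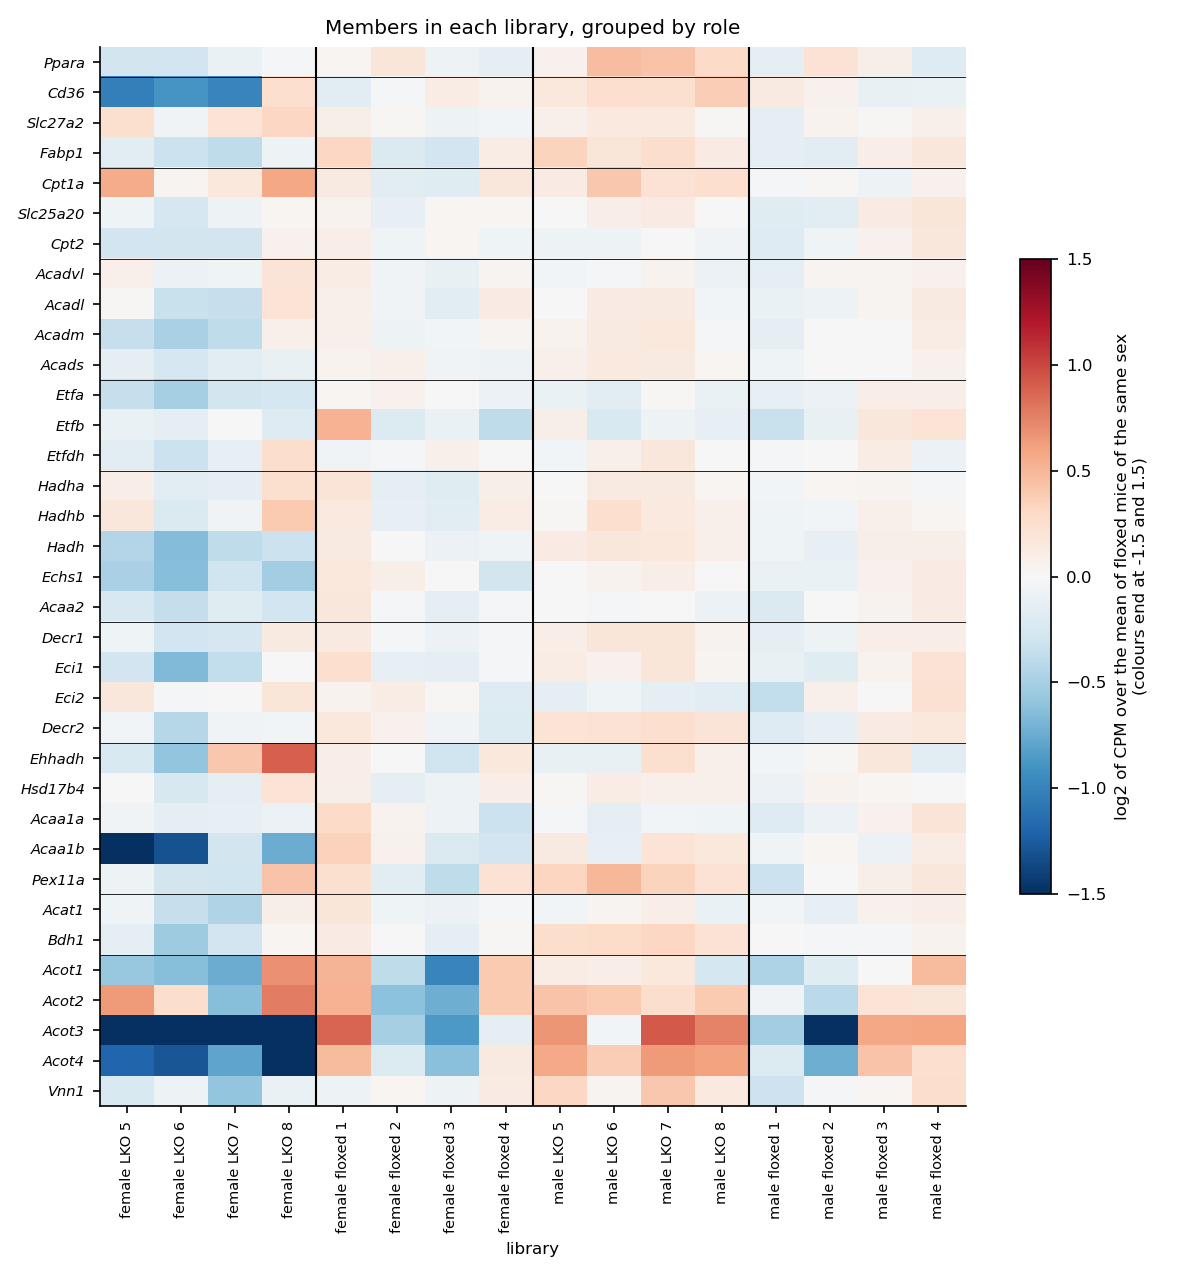
Each member (rows, grouped by role) in each library (columns) as log2 of its CPM over the mean of floxed mice of the same sex, with colours ending at -1.5 and 1.5. Female LKO 8 is redder than the other female LKO libraries for most members, and Acot3 and Acot4 are blue in all 4 female LKO libraries.

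The first comparison asked what loss of Matr3 in hepatocytes did to these genes in female livers. In LKO females 5 of 35 members fell and 0 rose. The falls were in Acot3 and Acot4, in Hadh and Echs1, which encode the medium- and short-chain 3-hydroxyacyl-CoA dehydrogenase and the short-chain enoyl-CoA hydratase of the mitochondrial cycle, and in Etfa, the alpha subunit of the flavoprotein that takes up electrons from the acyl-CoA dehydrogenases. Acot3 was lowered 5.27-fold, Acot4 2.24-fold, and the mitochondrial genes between 1.27-fold and 1.40-fold. A gene counted as changed when its adjusted p from edgeR's quasi-likelihood test (Benjamini-Hochberg over all genes tested) was under 0.05, and 9.29% of 15432 genes tested were so (4.85% lower and 4.44% higher). All 35 members passed the filter on low counts in each comparison.

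Acot3 had 45.1, 40.6, 82.6 and 32.2 CPM in LKO females 5 to 8, against 483, 186, 146 and 239 CPM in floxed females 1 to 4. All LKO females were below all floxed females, and floxed female 1 stood far above the other floxed mice. Its log2 fold change was -2.40 (SE 0.40, edgeR adjusted p = 0.0097). Acot4 had 155, 145, 205 and 125 CPM in LKO females, against 492, 305, 228 and 386 CPM in floxed females. The groups did not overlap, and floxed females 1 and 3 were again the highest and the lowest of their group. On the log2 scale the change was -1.17 (SE 0.23, edgeR adjusted p = 0.0161). Both calls held without any 1 of the 8 libraries, with edgeR adjusted p up to 0.0352 for Acot3 and 0.0499 for Acot4. Acot1 and Acot2, from the same cluster, were not called, at log2 fold changes of -0.19 (SE 0.38) and 0.35 (SE 0.35). Acot1 reached 190 CPM in LKO female 8, against 70.6 to 79.7 CPM in the other LKO females and 59.8 to 168 CPM in floxed females. Vnn1, a pantetheinase that is a classical PPARalpha target, differed by -0.24 (SE 0.12), also not called. Reads of the Acot genes can be shared with other genes. Of 100-base windows of the longest transcripts, 14.3% in Acot3, 0.36% in Acot4, 21.9% in Acot1 and 17.1% in Acot2 also occurred in another gene's transcripts. The gene that shared most was the gene model Gm49366 for Acot3 (9.9%), Acot2 for Acot1 (16.5%) and Acot1 for Acot2 (17.1%).

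Hadh had 450, 390, 470 and 490 CPM in LKO females 5 to 8, against 670, 613, 577 and 584 CPM in floxed females 1 to 4. The lowest floxed female lay above the highest LKO female. The change of Hadh was -0.44 on the log2 scale (SE 0.10, edgeR adjusted p = 0.0271). Echs1 had 178, 161, 203 and 175 CPM in LKO females, against 278, 265, 249 and 206 CPM in floxed females. LKO female 7 and floxed female 4 were within a few CPM of each other, and the groups did not overlap. Echs1 changed by -0.48 on the log2 scale (SE 0.11, edgeR adjusted p = 0.0277). Etfa had 297, 267, 313 and 316 CPM in LKO females, against 385, 395, 378 and 357 CPM in floxed females, a change of -0.35 on the log2 scale (SE 0.09, edgeR adjusted p = 0.0354). All LKO females were below all floxed females. Etfb, the beta subunit, and Etfdh, which passes the electrons to ubiquinone, were not called at -0.10 (SE 0.17) and -0.07 (SE 0.13). Of the 100-base windows of Etfb, 65.2% also occurred in transcripts of another gene, the gene model Gm45233, so its counts may be incomplete or mixed. The calls of Hadh, Echs1 and Etfa rested on most libraries. Without floxed female 1, 2 or 3 or LKO female 5 or 6, 2 members were called, Acot3 and Acot4. Without LKO female 8, Hadh was called but neither Echs1 nor Etfa was. Etfa was also not called with no filter on low counts. Hadh reached an edgeR adjusted p of up to 0.0798, Echs1 0.0849 and Etfa 0.107 when a library was left out.

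The rest of the mitochondrial cycle did not pass edgeR's test in females. Acaa2, the thiolase of medium chains, and Acads, the short-chain dehydrogenase, were lower in all LKO than in all floxed females without a call, at -0.27 (SE 0.10) and -0.17 (SE 0.08). Acaa2 was called lower with DESeq2 (adjusted p = 0.0284), in the fit of all 16 libraries (edgeR adjusted p = 0.0418) and with scaling by library totals (edgeR adjusted p = 0.0497), and in none of the 8 omissions of a library (edgeR adjusted p from 0.091 to 0.252). In all, 7 members had groups that did not overlap with LKO below, where 7.91% of genes did, and 0 with LKO above, where 8.04% of genes did. Hadha and Hadhb encode the subunits of the trifunctional protein of long chains and lie in opposite directions on chromosome 5 with their RefSeq starts 273 bases apart. They differed by 0.01 (SE 0.13) and 0.09 (SE 0.14). Acadvl, Acadl and Acadm, the dehydrogenases of very long, long and medium chains, differed by 0.03 (SE 0.10), -0.10 (SE 0.14) and -0.27 (SE 0.13). The enzymes for unsaturated chains, Decr1, Decr2, Eci1 and Eci2, ranged from -0.31 for Eci1 to 0.09 for Eci2.

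The carnitine shuttle, uptake, peroxisomal and ketone genes had no edgeR call in females, and the peroxisomal Acaa1b was called under several other settings. Cpt1a, the rate-limiting carnitine palmitoyltransferase of the outer mitochondrial membrane, had 1281, 899, 976 and 1305 CPM in LKO females, against 958, 777, 768 and 982 CPM in floxed females. The groups overlapped, and the log2 fold change was 0.35 (SE 0.15, edgeR adjusted p = 0.167). Cpt2, its partner on the inner membrane, and Slc25a20, the carnitine carrier, differed by -0.19 (SE 0.10) and -0.09 (SE 0.09). Acaa1b, a peroxisomal thiolase of rodents, had 754, 876, 1788 and 1288 CPM in LKO females, against 2748, 2257, 1860 and 1774 CPM in floxed females. LKO female 7 exceeded floxed female 4, and the log2 fold change of -0.88 (SE 0.26) missed the threshold (edgeR adjusted p = 0.0623). Acaa1b was called lower in 6 of the 9 other settings. The adjusted p was 0.0073 with DESeq2 and 0.0492 with limma-voom. By edgeR it was 0.0104 in the fit of all 16 libraries, 0.0459 with library totals and 0.0452 with no filter. Without floxed female 4 and LKO female 7 it was 0.00696 by edgeR. These are the libraries that overlapped, so that setting separates the groups by its choice of libraries and adds no support. Library totals also moved the median log2 fold change of all genes in females to -0.08, against 0.00 with TMM. Of the omissions of a single library, that of LKO female 7 alone gave a call (edgeR adjusted p = 0.00921, the others 0.0545 to 0.161). Acaa1a, close to Acaa1b in sequence, differed by -0.10 (SE 0.12), and 22.6% of Acaa1b windows also occurred in Acaa1a. Ehhadh, the bifunctional enzyme of peroxisomes, had 928, 726, 1444 and 2029 CPM in LKO females, against 1164, 1092, 885 and 1221 CPM in floxed females, so the LKO group spanned the floxed one. Hsd17b4, its counterpart for branched chains and bile acid precursors, and Pex11a, which takes part in peroxisome division, differed by -0.04 (SE 0.12) and -0.02 (SE 0.19). Bdh1, which makes 3-hydroxybutyrate, and Acat1, the mitochondrial acetoacetyl-CoA thiolase, differed by -0.22 (SE 0.12) and -0.18 (SE 0.13).

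Cd36, a fatty acid translocase that macrophages, endothelium and adipocytes also carry, had 110, 121, 113 and 267 CPM in LKO females, against 200, 222, 243 and 232 CPM in floxed females. LKO female 8 was above all floxed females and the other LKO females were below them. The log2 fold change was -0.56 (SE 0.26, edgeR adjusted p = 0.202), and without LKO female 8 it was -0.97 (edgeR adjusted p = 0.00246). The other omissions of a single library gave -0.61 to -0.43 (edgeR adjusted p from 0.257 to 0.401). None of the 9 other settings called Cd36. Slc27a2, the very long chain acyl-CoA synthetase and transporter FATP2, and Fabp1 differed by 0.18 (SE 0.12) and -0.23 (SE 0.16). Ppara itself had 177, 176, 201 and 212 CPM in LKO females, against 220, 243, 204 and 194 CPM in floxed females. The groups overlapped and the log2 fold change was -0.17 (SE 0.10, edgeR adjusted p = 0.294).

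Without regard to the test, 27 of 35 members (77.1%) had a negative log2 fold change in females, against 49.8% of all genes, and the median was -0.17, against 0.00 over all genes. These signs share libraries and are not independent. Cell type markers also differed in these libraries. The summed level of 8 hepatocyte markers was 35239 to 52692 CPM in LKO females, against 59606 to 68126 CPM in floxed females. Most of this sum was Alb, with 17335 to 30347 CPM in LKO females, against 42313 to 49505 CPM in floxed females. Alb and Ttr were called lower and Tat and Hnf4a higher. Of the 8 markers, 6 had a positive log2 fold change and 2 a negative one, with a median of 0.26. The summed level of 8 markers of sinusoidal endothelium was 169 to 217 CPM in LKO females, against 240.5 to 256 CPM in floxed females, with 5 of 8 lower. Of 8 stellate cell markers 2 were lower (summed 286 to 316 CPM in LKO, against 320 to 389 CPM in floxed females), and 0 of 9 Kupffer cell markers were called (790 to 1239 CPM in LKO, against 693 to 1069 CPM in floxed females). None of these markers was at 0 in a group. Their part in the results for the members was not tested.

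Other genes of the pathway are given from lists that exclude the members. The list of other targets shares 7 genes with the other peroxisomal genes, Abcd2 among them, 2 with the synthetases and transporters and 1 with the other ketone genes, so these counts are not separate. Their calls were not recomputed under other settings. Of 17 partners and regulators of PPARalpha 3 were higher in LKO females and 0 lower, with the liver regulators Hnf4a at 0.52 (SE 0.11), Creb3l3 at 0.38 (SE 0.09) and Ppargc1a at 0.94 (SE 0.25) on the log2 scale. Of 30 other PPARalpha targets tested, 3 were higher and 2 lower. Angptl4, an inhibitor of lipoprotein lipase, rose by 0.55 (SE 0.12) and Pnpla2, the triglyceride lipase ATGL, by 0.56 (SE 0.14). Plin5, a lipid droplet protein, rose by 1.38 (SE 0.38) and is named outside the rule for named genes, after its values were seen. Abcd2, a peroxisomal importer of acyl-CoA, was at -0.65 (SE 0.14) and Aldh3a2, a fatty aldehyde dehydrogenase, at -0.64 (SE 0.15). Of 7 other ketone genes, the ketone and lactate carrier Slc16a1 rose by 0.90 (SE 0.20) and Aacs, which activates acetoacetate in the cytosol, was at -0.95 (SE 0.25). Among 18 acyl-CoA synthetases and transporters 1 was higher and 2 lower, and among 33 other peroxisomal genes 0 were higher and 2 lower. The other targets held calls in both directions, the regulators in the higher direction alone and the members in the lower direction alone.

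**Figure D3:**
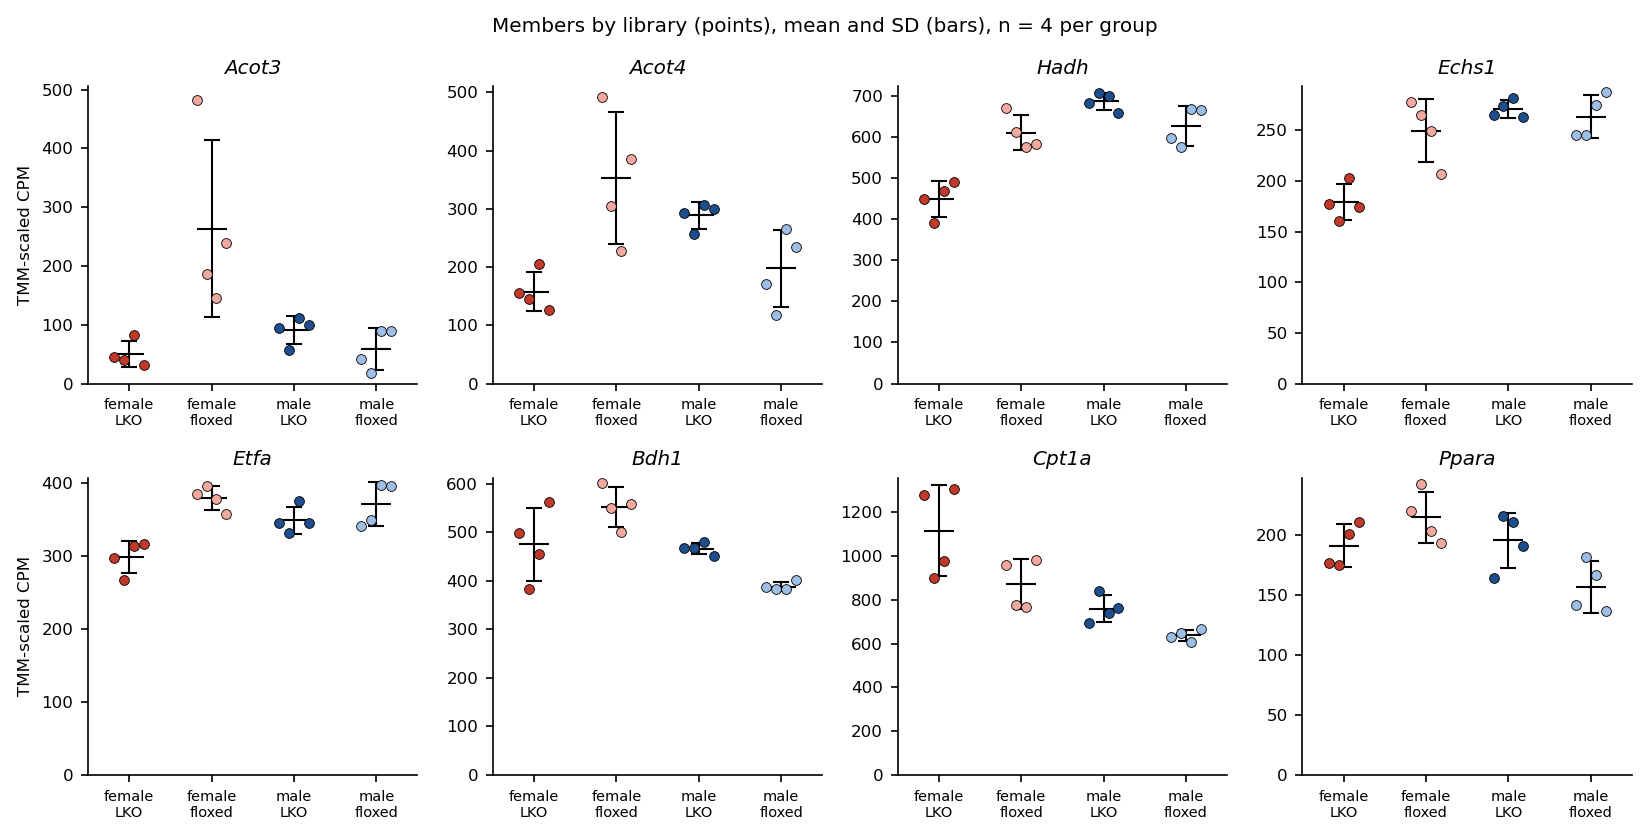
CPM of 8 members in each mouse (points) with the mean and SD of 4 mice (bars), for female LKO, female floxed, male LKO and male floxed livers from left to right. Acot3, Acot4, Hadh, Echs1 and Etfa lie lower in female LKO than in female floxed mice, and Bdh1 lies higher in male LKO than in male floxed mice.

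The second comparison put the same question to male livers. In LKO males 1 of 35 members rose, Bdh1, and 0 fell, where 1.04% of 15355 genes tested passed the threshold (0.528% higher and 0.514% lower). The rise was 1.20-fold. Bdh1 had 467, 468, 480 and 451 CPM in LKO males 5 to 8, against 387, 383, 383 and 402 CPM in floxed males 1 to 4. Both groups were narrow and did not overlap. The log2 fold change was 0.26 (SE 0.05, edgeR adjusted p = 0.043). The call was held without floxed male 4 and lost without any other single library, with edgeR adjusted p up to 0.138. It was also lost with no filter on low counts, without floxed males 1 and 2 (whose mouse numbers lie apart from the rest), and when all 16 libraries shared a fit, where edgeR gave an adjusted p of 0.314.

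Besides Bdh1, 5 members were higher in all LKO males than in all floxed males without passing the test. They were Cpt1a at 0.25 (SE 0.07, edgeR adjusted p = 0.157), Cd36 at 0.25 (SE 0.07), Pex11a at 0.34 (SE 0.10), Acot2 at 0.37 (SE 0.12) and Decr2, the peroxisomal dienoyl-CoA reductase, at 0.22 (SE 0.08). Of all genes 3.92% had LKO males above floxed males without overlap, and 4.14% had the reverse, which 0 members had. Cpt1a had 693, 842, 741 and 761 CPM in LKO males, against 630, 648, 607 and 668 CPM in floxed males. The lowest LKO male was just above the highest floxed male. DESeq2 called 3 members, Bdh1, Cd36 and Cpt1a.

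Ppara had 165, 216, 211 and 191 CPM in LKO males, against 142, 182, 167 and 137 CPM in floxed males. LKO male 5 lay within the floxed range, and the log2 fold change was 0.32 (SE 0.11, edgeR adjusted p = 0.245). Acot3 had 93.7, 57.5, 112 and 99.2 CPM in LKO males, against 41.4, 17.3, 88.8 and 89.6 CPM in floxed males. Floxed males 1 and 2 were low and floxed males 3 and 4 near the LKO mice, and the change was 0.61 on the log2 scale (SE 0.42, edgeR adjusted p = 0.612). Acot4 had 292, 256, 306 and 300 CPM in LKO males, against 171, 119, 266 and 235 CPM in floxed males, and floxed males 1 and 2 were again the low ones. Its log2 fold change was 0.55 (SE 0.20, edgeR adjusted p = 0.287). Hadh, Echs1 and Etfa differed by 0.13 (SE 0.07), 0.04 (SE 0.07) and -0.09 (SE 0.07), with overlapping groups. Etfa had 331 to 374 CPM in LKO males, against 341 to 397 CPM in floxed males.

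All other members lay between -0.12 for Eci2 and 0.23 for Vnn1 in males. In all, 28 of 35 (80%) had a positive log2 fold change, against 48.4% of all genes, with a median of 0.10, against -0.01 over all genes. Of 32 other PPARalpha targets 1 was called, Cidec, a lipid droplet protein that rose by 1.14 (SE 0.18). Of 17 partners, 7 other ketone genes, 17 acyl-CoA synthetases and transporters and 33 other peroxisomal genes, 0 were called in LKO males with edgeR, at an unadjusted p under 0.05 in 1, 2, 7 and 6 of them, where 12.3% of all genes were under it. These lists were not run with another tool. The summed level of the 6 adipocyte markers in the male table was 128 to 153 CPM in LKO males, against 47.4 to 77.2 CPM in floxed males, with 0 of 4 tested called. Of the markers that define fat cells, Adipoq had 1 count over the LKO males and 4 over the floxed males, and Plin1 had 5 and 3. Cidea, Cfd and Aqp7 made up the rest together with Lipe, and Cd36 is also expressed in adipocytes. The part of these markers in the results was not tested.

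The third comparison tested whether the effect of the knockout differed between the sexes, as the effect in females minus that in males. It was lower in females for 4 of 35 members, Acot4, Hadh, Acot3 and Echs1, and higher for 0, where 4.42% of 16126 genes tested passed the threshold (2.45% lower and 1.97% higher). The difference was -3.01 (SE 0.65, edgeR adjusted p = 0.0165) for Acot3 and -1.71 (SE 0.34, edgeR adjusted p = 0.0125) for Acot4 on the log2 scale. It was -0.57 (SE 0.12, edgeR adjusted p = 0.0141) for Hadh and -0.52 (SE 0.13, edgeR adjusted p = 0.0346) for Echs1. The thioesterases and Hadh kept their calls without any 1 of the 16 libraries, with edgeR adjusted p up to 0.0384 for Acot3, 0.0304 for Acot4 and 0.0333 for Hadh. The difference was not refitted without floxed males 1 and 2 together, the low ones for Acot3 and Acot4. Under settings other than single omissions, the effect in males alone was 0.021 to 0.85 for Acot3 and 0.21 to 0.61 for Acot4. Echs1 kept its call in 4 of the 16 omissions, with edgeR adjusted p up to 0.0939 over all settings.

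Etfa, which fell in females, had a difference of -0.26 (SE 0.11, edgeR adjusted p = 0.184), so its effect was not shown to differ between the sexes. Bdh1 had -0.48 (SE 0.13) and sat at the threshold with an edgeR adjusted p of 0.05, without a call. Ppara had -0.49 (SE 0.16, edgeR adjusted p = 0.0813), Acads -0.26 (SE 0.08, edgeR adjusted p = 0.0816) and Acaa1b -0.97 (SE 0.30, edgeR adjusted p = 0.0709). DESeq2 called 8 members, those 4 with Bdh1, Ppara, Acads and Acaa1b. Cd36 had -0.81 (SE 0.30, edgeR adjusted p = 0.134), and -1.22 (edgeR adjusted p = 0.000167) without LKO female 8. None of the 15 other omissions gave a call for Cd36. Acot1 and Acot2 had -0.23 (SE 0.47) and -0.02 (SE 0.40), where the wide errors leave large differences possible. Cpt1a had 0.11 (SE 0.17), with positive values in both sexes.

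The sign of the difference was negative for 30 of 35 members (85.7%), against 48.3% of all genes, and the median was -0.24, against 0.01 over all genes. The difference was at an unadjusted p under 0.05 for 15 of 35 members, and for 20.5% of all genes. Of the other lists, Aacs had a difference of -1.80 (SE 0.39), Abcd2 -1.16 (SE 0.24), Aldh3a2 -0.84 (SE 0.17) and Hnf4a 0.70 (SE 0.14). The acyl-CoA synthetases Acsm3 and Acsm5 had -0.57 (SE 0.15) and -0.72 (SE 0.20). Of 8 markers of sinusoidal endothelium 5 had a negative difference that was called, and Alb had -0.92 with Hnf4a on the opposite side. Their part in the difference for the members was not tested.

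**Figure D4:**
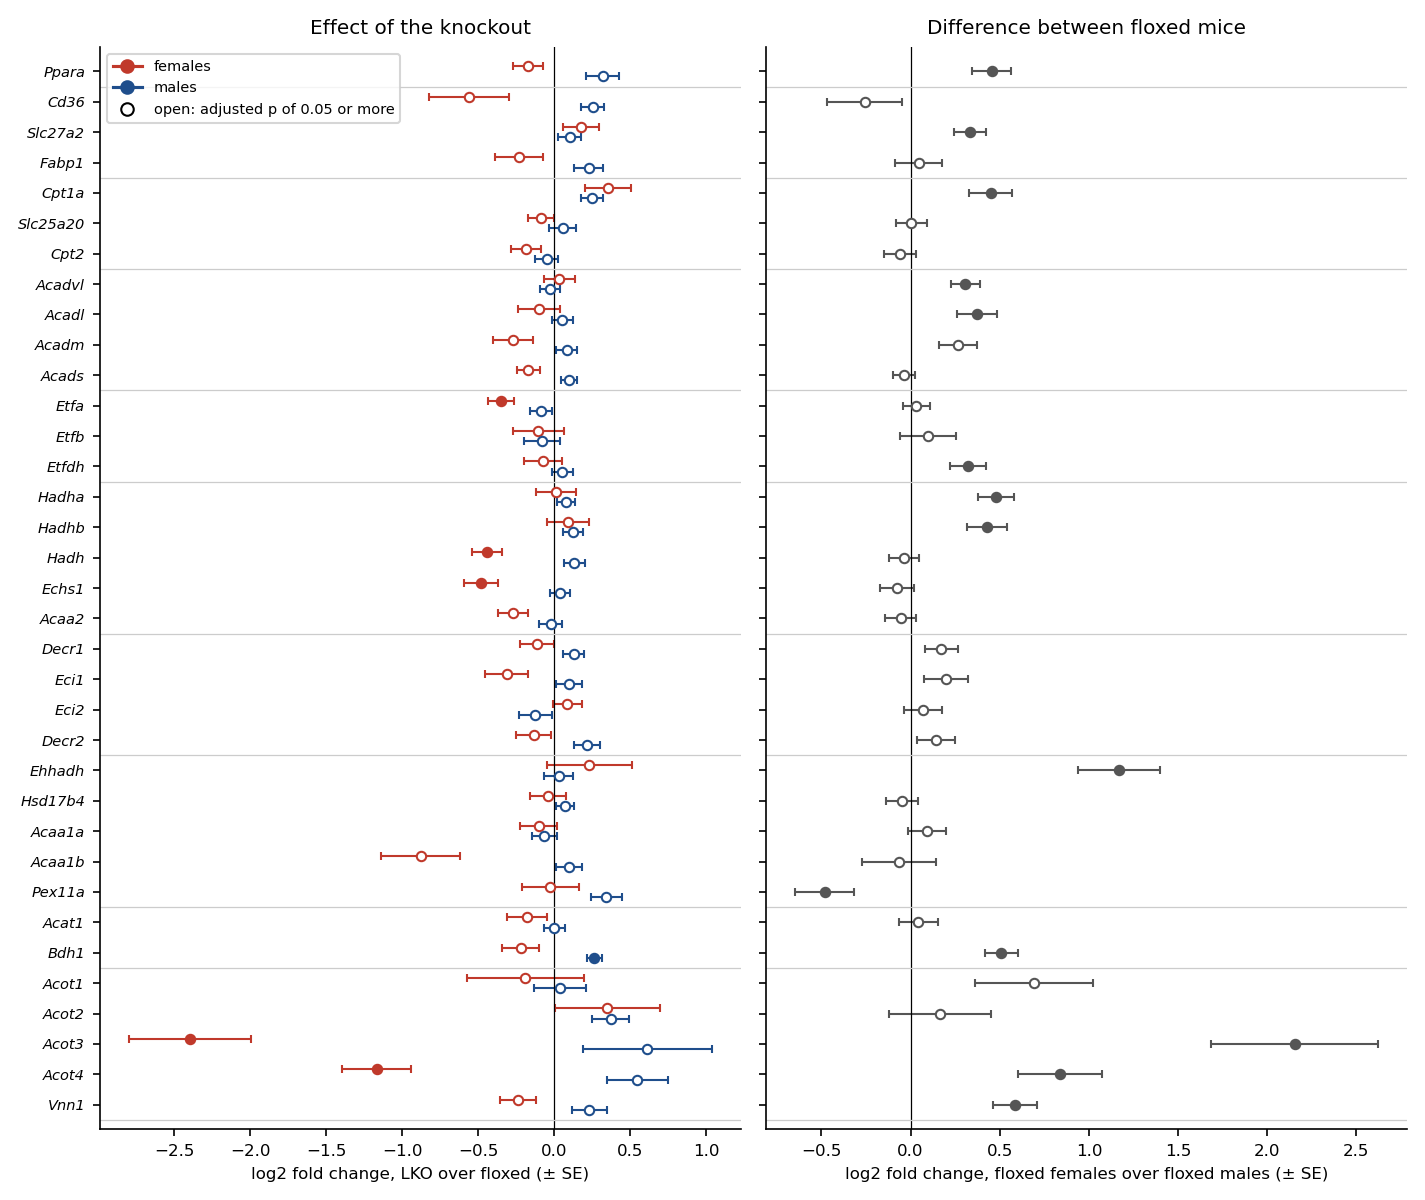
Log2 fold change of each member with its SE, grouped by role, for LKO over floxed mice in females and males (left) and for floxed females over floxed males (right). Filled points passed an adjusted p of 0.05, and Acot3, at -2.40 in females and 0.61 in males, lies farthest from 0.

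The fourth comparison took the mean of the effects of both sexes, the average of both, which does not show that a gene moved in both. Cpt1a rose and Etfa and Echs1 fell, 3 of 35 members, where 8.55% of 16126 genes tested passed the threshold (4.05% higher and 4.5% lower). The log2 fold change was 0.30 for Cpt1a (SE 0.09, edgeR adjusted p = 0.0393), -0.22 for Etfa (SE 0.05, edgeR adjusted p = 0.0211) and -0.22 for Echs1 (SE 0.07, edgeR adjusted p = 0.0487). Echs1 is also among the members whose effect differed between the sexes, with -0.48 in females and 0.04 in males. Etfa kept its call in 14 of 16 omissions of a library, Cpt1a in 5 and Echs1 in 4. Without male LKO 6 or male floxed 3, 0 members were called. Etfa alone was called without female LKO 5, female floxed 2, female floxed 3, male LKO 7, male LKO 8 or male floxed 4, and Etfa and Cd36 without female LKO 8. Without female LKO 7, 5 members were called, the 3 named with Acaa1b and Acot3. The call of Echs1 was also lost with limma-voom, with median-of-ratios scaling and with no filter. That of Cpt1a was lost with scaling by library totals, which called Acaa2, Hadh, Echs1 and Etfa.

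The fifth comparison set floxed females against floxed males, the sex difference of these genes on the high-fat diet without the knockout. Of 35 members 13 were higher in females and 1, Pex11a, was lower, where 22.9% of 16126 genes tested passed the threshold (11.3% higher and 11.6% lower). The higher members included the receptor Ppara, Cpt1a, both subunits of the trifunctional protein, the long-chain dehydrogenases Acadvl and Acadl, Ehhadh, Bdh1, Vnn1, Slc27a2, Etfdh and the thioesterases Acot3 and Acot4. Ehhadh was 2.25-fold and Acot3 4.45-fold higher. The sexes were deposited in separate tables, so sex and table cannot be told apart.

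Ehhadh had 1164, 1092, 885 and 1221 CPM in floxed females 1 to 4, against 472, 489, 544 and 433 CPM in floxed males 1 to 4. All females were well above all males, a difference of 1.17 on the log2 scale (SE 0.23, edgeR adjusted p = 0.00186). Bdh1, with the values given above, was higher by 0.51 (SE 0.09, edgeR adjusted p = 0.00128), and its lowest floxed female stood at 502 CPM. Hadha had 768, 612, 593 and 711 CPM in floxed females, against 468, 491, 494 and 474 CPM in floxed males, and was higher by 0.48 (SE 0.10, edgeR adjusted p = 0.00293). Hadhb had 367, 306, 296 and 358 CPM in floxed females, against 237, 240, 260 and 252 CPM in floxed males, and was higher by 0.43 (SE 0.11, edgeR adjusted p = 0.0122). For both subunits floxed females 1 and 4 were high and 2 and 3 low, and neither gene's groups overlapped. Of the Hadhb windows, 52.8% also occurred in transcripts of another gene, the gene model Gm13910. Vnn1 had 286, 309, 287 and 329 CPM in floxed females, against 163, 198, 206 and 242 CPM in floxed males, and was higher by 0.58 (SE 0.12, edgeR adjusted p = 0.0033).

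Ppara was higher by 0.45 (SE 0.11, edgeR adjusted p = 0.0074), with 194 to 243 CPM in floxed females, against 137 to 182 CPM in floxed males. Acot3 was higher by 2.15 (SE 0.47, edgeR adjusted p = 0.00372) without overlap. Acot4 was higher by 0.84 (SE 0.24, edgeR adjusted p = 0.0181), and its groups overlapped. The call of Acot4 was lost without floxed female 1 or floxed male 2. Cpt1a was higher by 0.45 (SE 0.12, edgeR adjusted p = 0.0145), and its call was lost without floxed female 4. The remaining higher members were Acadvl (0.31), Slc27a2 (0.33), Acadl (0.37) and Etfdh (0.32). Slc27a2 was not called without floxed male 1. Acadl was not called without floxed female 1 or 4 or floxed male 1 or 2. Etfdh was not called without any 1 of floxed females 2 to 4 or of floxed males 1, 2 and 4. Pex11a was lower by 0.48 (SE 0.17, edgeR adjusted p = 0.0448) and kept this call in 7 of 16 omissions.

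The genes that fell in LKO females were not alike in this comparison. Acot3 and Acot4 were higher in floxed females than in floxed males, while Hadh, Echs1 and Etfa were not called. The floxed females enter both comparisons, so no relation between these values is drawn. Beside the members, floxed females had 8 of 32 other PPARalpha targets higher and 4 lower. Log2 fold changes of the 32 ranged from -10.5 to 2.02, so the largest difference was on the lower side. Among the higher ones were Abcd2 at 1.52 (SE 0.17) and Cyp4a31, a fatty acid hydroxylase, at 2.02 (SE 0.27). Of 33 other peroxisomal genes 10 were lower, 2 higher and 21 not called, with Scp2, a sterol carrier and thiolase, at -0.79 (SE 0.09) and Nudt7, a coenzyme A diphosphatase, at -1.34 (SE 0.19). Of 18 acyl-CoA synthetases and transporters 6 were higher and 4 lower, with Slc27a1 at 0.93 (SE 0.16) and Acsl1 at -0.67 (SE 0.14). Of 9 Kupffer cell markers 8 were higher in floxed females, with a summed level of 693 to 1069 CPM, against 242 to 389 CPM in floxed males. Of 6 neutrophil markers tested 5 were higher, with the sum of all 7 at 12.7 to 76.0 CPM in floxed females, against 5.57 to 10.6 CPM in floxed males. Of 4 adipocyte markers tested 3 were lower, with the sum of all 6 at 22.6 to 32.1 CPM in floxed females, against 47.4 to 77.2 CPM in floxed males. Cidea and Cfd had means of 0.21 and 0.60 CPM in floxed females, against 16.6 and 17.8 CPM in floxed males. Adipoq, which defines fat cells, went the other way, with 71 counts over the floxed females and 4 over the floxed males. Their part in the results for the members was not tested.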

How the data were processed

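Poly(A) RNA of 16 livers was sequenced from directional libraries, per the labels' protocols. The authors deposited whole-number counts per Ensembl gene, 1 table per sex, on mm10 per the submitters' processing notes. The aligner, the counter and its strand setting are not given in the sources used here.

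Groups came from the labels. Genes passed filterByExpr of edgeR 4.0.16 (R 4.3.3) at a count of at least 10 and a total of at least 15. After TMM scaling, edgeR's quasi-likelihood F-test (two-sided) was used, with Benjamini-Hochberg adjustment over all genes tested. Each sex was fitted alone, and the other comparisons used 1 fit of 16 libraries. Alternatives used DESeq2 1.42.0 and limma 3.58.1, other scalings and filters, robust dispersion, a replicate block, and omission of libraries. The procedure was run on simulated counts with known changes, drawn independently with the same dispersion for all genes. This checked the working of the code and not its error rates in these data. TPM used GENCODE M21 exon unions.

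Members and lists were chosen with earlier results of these data known. All members are named, with values per library for up to 12 called members and Ppara, and up to 4 called genes per other list and comparison. Acaa1b and Cd36, which had no edgeR call under the main settings, are given per library outside this rule. No library was a copy of another (chi-square per degree of freedom of at least 12.7 over 24 pairs within groups).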

Additional observations from a re-analysis of the deposited data

Results flagged for a closer look

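Differences between the sexes in the effect of the knockout were called for 4 members. The effect in females minus that in males was -3.01 for Acot3, -1.71 for Acot4, -0.57 for Hadh and -0.52 for Echs1 on the log2 scale. Each passed the edgeR quasi-likelihood test of the difference itself.

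A library stood apart from the 3 others of its group in 8 of the 140 sets of 4 values that the members gave, by Dixon's criterion (the gap to the nearest library set against the range of the 4). Chance alone marks about 1 set in 20, which is near the share seen here. Female LKO 8 was the high library for Cd36 (267 CPM, the others 110 to 121), Cpt2 (236 CPM, the others 185 to 186) and Acot1 (190 CPM, the others 70.6 to 79.7). Female LKO 6 was low for Decr2 at 302 CPM, against 393 to 395 CPM in the others. Female floxed 2 was low for Slc25a20 at 174 CPM, against 194 to 197 CPM in the others. Male LKO 8 was low for Acot1 at 61.2 CPM (78.8 to 82.3 in the others), male LKO 6 was high for Eci2 at 263 CPM (247 to 250.1 in the others), and male floxed 1 was low for Acadvl at 460 CPM (524 to 536 in the others). Whether any of these libraries differed by more than chance was not tested.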

How the results depend on the processing

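Over 3919 values under alternative settings, for 177 log2 differences and the counts of calls, 154 changed sign. These belonged to 56 log2 differences of at most 0.23 in size, none of which was called before or after the change of sign. Within a sex, omitting 1 library at a time gave 69 to 179 called genes in males and 396 to 2300 in females (most without female LKO 7), with 0 to 1 and 2 to 6 called members. The difference of effects had 407 to 1435 called genes and the mean over both sexes 788 to 2252, with 0 to 5 called members for the mean. In females such omissions gave Etfb -0.21 to 0.12, Acaa1a -0.19 to 0.0071, Pex11a -0.22 to 0.064, Acot1 -0.65 to 0.026, Hadha -0.071 to 0.083, Acadvl -0.026 to 0.073, Etfdh -0.21 to 0.0048, Hsd17b4 -0.13 to 0.023 and Hadhb -0.024 to 0.18 on the log2 scale, and for the difference Acot2 -0.20 to 0.20. Without female floxed 4 and LKO 7 together, 3028 genes were called in females, and Acadl was at 0.025, Hsd17b4 at 0.035, Pex11a at 0.14 and Acot1 at 0.12. Without male floxed 1 and 2 together, 0 members were called in males, and Echs1 was at -0.056. With no filter on low counts, 0 members were called in males.

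With DESeq2, 518 genes and 3 members were called in males, 2415 genes and 7 members in females, and 1358 genes and 8 members for the difference. The fit of all 16 libraries gave 97 genes called in males, with 0 members, and 2854 genes called in females, with 7 members. The 7 in females added Acaa1b and Acaa2 under both settings. Scaling by library totals called 449 genes higher and 1240 lower in females, and 203 higher and 698 lower for the difference. It called 7 members in females and 7 for the difference, all lower, and put Acadvl at -0.045 and Hadha at -0.065 in females. It also moved the balance of calls: 26.6% of called genes were higher in females (47.8% with TMM), 22.5% for the difference (44.6%), 25.8% for the mean of both sexes (47.4%) and 66.9% for floxed females against floxed males (49.4%). The cause of these shifts was not tested.

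Deviations from the group mean of mice with the same number in both sexes had correlations of -0.164 to 0.194. These were not tested and cannot show whether the numbers pair the mice. The main fit did not pair them. With a replicate block, 468 genes and 2 members (Acot3 and Acot4) were called for the difference, and 9 members for floxed females against floxed males. Settings other than single omissions called 2937 to 4177 genes for floxed females against floxed males. No paired analysis was possible within a sex because LKO and floxed mice of a sex share no replicate numbers. At 4 mice a group, a missed threshold does not show that a gene did not change. How reads shared by Acot or Acaa1 genes, or by Etfb and Hadhb with gene models, were counted is not given in the sources used here.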
